A study of Mus musculus with 16 samples.

Results

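The genes examined were 36 genes of protein folding and quality control in the endoplasmic reticulum (ER) and of the unfolded protein response, described in O4-sorted oligodendrocytes of young mice exposed to bisphenol A (BPA) and of controls. They were chosen by name and role, with earlier results of these data known, and were found by matching Ensembl identifiers to gene symbols. All 36 were among the 32207 genes of the count table, and all 36 were among the 16339 genes that passed the filter on low counts. By role they were 5 sensors and transducers, 10 luminal chaperones and co-chaperones, 3 genes of the lectin chaperone cycle, 5 disulfide isomerases, 11 genes of ER-associated degradation and 2 subunits of the translocon.

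Secreted and membrane proteins enter the ER through the Sec61 channel and fold there with the help of BiP (encoded by Hspa5), GRP94 (Hsp90b1), the lectins calnexin and calreticulin, and disulfide isomerases. When unfolded proteins build up, BiP leaves the membrane sensors IRE1 (Ern1), PERK (Eif2ak3) and ATF6. IRE1 then splices the Xbp1 mRNA, ATF6 is cut into a transcription factor, PERK phosphorylates eIF2 alpha, and the transcription factors XBP1 and ATF6 raise the mRNA of chaperones and of the degradation machinery, so that Hspa5 and Herpud1 mRNA are common readouts of the pathway. Oligodendrocytes make large amounts of membrane protein during myelination, and the PERK branch has been studied in myelin disease. Gene-level counts do not separate the spliced from the unspliced Xbp1 mRNA, and the cleavage of ATF6 and the phosphorylation of PERK are not seen in RNA.

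The mice were OF-1, an outbred stock, and no genetic change is labelled in any group. The 4 groups were control males, control females, BPA-exposed males and BPA-exposed females at postnatal day 16, with 4 libraries each out of 9 control and 10 exposed mice in the study. The exposed pups' mothers drank BPA from gestational day 7 through lactation, at an estimated 40 µg/kg/day by the labels. The water held 250 µg/mL by the design text, and both numbers hold together only for an intake of 0.16 mL/kg/day, so the scale of the dose is unsettled. Brain cells of every group were dissociated and sorted magnetically for O4, a surface antigen of late precursors and of oligodendrocytes. Litter and batch are not labelled, BPA was given to the mothers, and littermates may be present, so each p-value rests on the variation among these libraries only and may be too small.

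Totals ran from 23603816 to 42575326 counts per library. The 14 markers of myelinating oligodendrocytes were all detected and summed to 123516 to 173555 CPM in each library (CPM, counts scaled to a common library total). The 12 neuron markers summed to 25.7 to 36.1 CPM, with Rbfox3, Slc17a7, Slc17a6, Nefl and Nefh below 1 CPM in every group. The 12 astrocyte markers summed to 1299.6 to 2946 CPM in 15 libraries and to 7010.3 CPM in male BPA 2. The 15 microglia markers summed to 742 to 2854 CPM, highest in female BPA 1. In bulk RNA, fewer cells of a type and less RNA per cell cannot be told apart. Male BPA 2 and female BPA 1 stand apart in earlier results of these data, and the values of the members with the smallest p-values are given with and without them.

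Transcription factors of this response bind the ER stress element, whose letters are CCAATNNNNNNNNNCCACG (ERSE), and a shorter form, ATTGGNCCACG (ERSE-II), which shares the CCACG end with it. Both were searched on both strands, with the XBP1 site TGACGTGG (UPRE), in the RefSeq promoters of build GRCm38.p6, from 250 bases before to 50 bases after each start. Of the 36 members 29 matched an entry by symbol. The ERSE was in the promoters of 9 of these 29 genes (31.03%), against 0.119% of all 32851 promoters. The ERSE-II was in 2 of 29, Herpud1 and Dnajb11, against 0.0365% of all promoters, and the UPRE in 1 of 29, Txndc5, against 0.676%. The table has no entry for Hyou1, Derl1, Hspa13, Sec61a1, Manf, Atf6 or Erlec1. A match is a description of the letters and no evidence of binding, and a promoter with no match lacks only these letters in this window. The counts were made on mm39 and carry no coordinates.

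The 250 bases upstream of the start are shown for Hspa5, Hsp90b1 and Herpud1, the members with an element among those whose values are given for every library. Each is written 5′ to 3′ on the gene's strand with the element in capitals. Hspa5 lies at chr2:34771840-34772089 (plus strand), Herpud1 at chr8:94386179-94386428 (plus strand) and Hsp90b1 at chr10:86705445-86705694 (minus strand, 2 elements).
Hspa5: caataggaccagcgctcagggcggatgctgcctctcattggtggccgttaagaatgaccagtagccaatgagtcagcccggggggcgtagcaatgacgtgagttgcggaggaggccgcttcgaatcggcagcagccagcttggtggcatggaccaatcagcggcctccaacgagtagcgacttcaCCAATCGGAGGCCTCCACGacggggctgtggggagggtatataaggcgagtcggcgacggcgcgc
Herpud1: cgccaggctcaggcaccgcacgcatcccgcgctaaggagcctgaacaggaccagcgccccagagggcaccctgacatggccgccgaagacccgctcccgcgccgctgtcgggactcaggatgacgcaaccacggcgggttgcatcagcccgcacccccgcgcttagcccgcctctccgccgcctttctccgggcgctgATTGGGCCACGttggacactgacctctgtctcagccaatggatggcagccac
Hsp90b1: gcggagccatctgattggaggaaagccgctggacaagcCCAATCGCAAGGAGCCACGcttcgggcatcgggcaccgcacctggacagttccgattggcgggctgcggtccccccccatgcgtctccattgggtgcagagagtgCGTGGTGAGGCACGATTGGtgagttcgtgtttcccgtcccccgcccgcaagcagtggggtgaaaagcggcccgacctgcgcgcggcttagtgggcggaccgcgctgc

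The other 7 members with an ERSE are shown by the element and 20 bases on either side, to let the 9 bases between its fixed ends be compared. On genes where the element lies on the opposite strand it reads CGTGG first. The windows lie at chr14:118937807-118937865 for Dnajc3 (plus), chr15:88819500-88819558 for Creld2 (plus), chr8:84847055-84847113 for Calr (minus), chr11:50325780-50325838 for Canx (minus), chr12:17266471-17266529 for Pdia6 (plus), chr19:6046512-6046570 for Syvn1 (plus) and chr10:75893222-75893280 for Derl3 (plus).
Dnajc3: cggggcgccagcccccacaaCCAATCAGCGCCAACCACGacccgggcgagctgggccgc
Creld2: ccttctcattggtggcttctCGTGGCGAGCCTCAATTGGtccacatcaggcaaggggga
Calr: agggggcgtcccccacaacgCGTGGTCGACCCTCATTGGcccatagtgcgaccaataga
Canx: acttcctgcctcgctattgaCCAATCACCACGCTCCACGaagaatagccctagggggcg
Pdia6: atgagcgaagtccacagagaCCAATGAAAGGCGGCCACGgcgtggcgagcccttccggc
Syvn1: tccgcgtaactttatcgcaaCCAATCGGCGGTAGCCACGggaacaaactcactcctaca
Derl3: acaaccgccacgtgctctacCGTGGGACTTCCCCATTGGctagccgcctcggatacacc

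All of these ERSE matches lay upstream of the start, from position -212 in Hsp90b1 to position -44 in Syvn1 (first base of the match, counted from the start). The element of Hspa5 began at -65 and that of Herpud1 at -52. The match of Dnajb11 began 8 bases after the start.

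**Figure D1:**
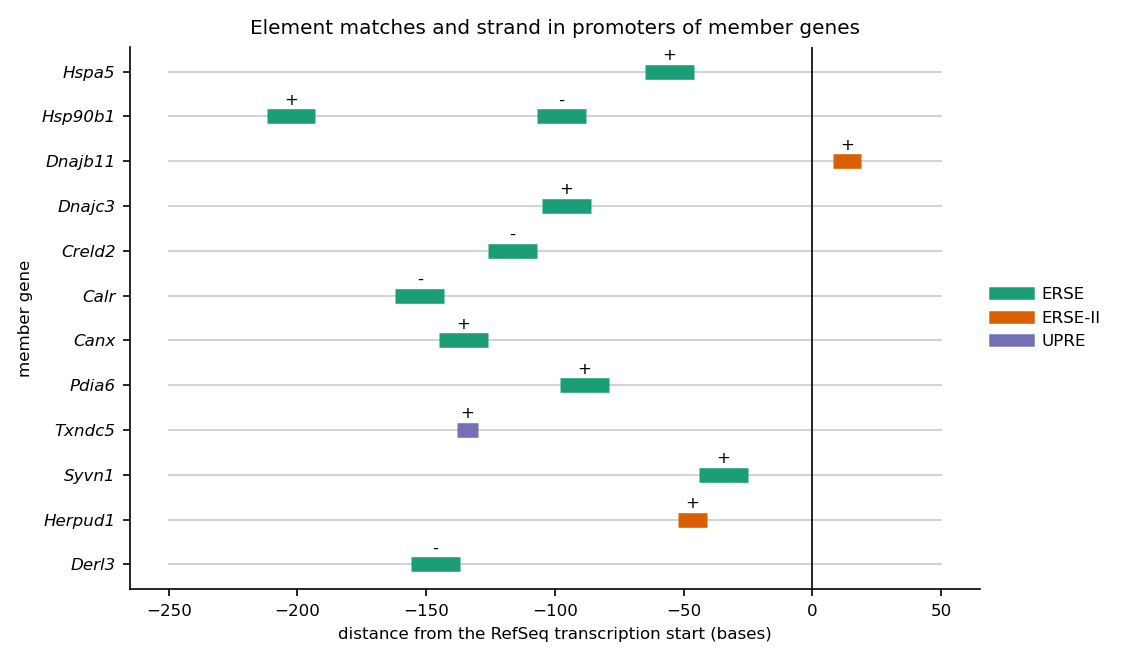
Positions of the ERSE, ERSE-II and UPRE matches (coloured bars) in the RefSeq promoters of the 12 members that hold one. The x axis is the distance from the transcription start in bases, the grey line is the window searched, and the sign above a bar is the strand of the match. Only the promoter with the match is drawn for Txndc5. All matches but that of Dnajb11 lie upstream of the start.

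In BPA-exposed mice of both sexes together, no member passed the test, and 4 had higher values with an unadjusted p under 0.05, 1 from each of 4 roles. They were Herpud1 (degradation, 1.26-fold), Hspa5 (the chaperone BiP, 1.25-fold), Xbp1 (transducer, 1.14-fold) and Pdia4 (disulfide isomerase, 1.12-fold). The other 32 members ran from -0.13 to 0.12 on the log2 scale, and the median of all 36 was 0.0007, with 19 above and 17 below 0 (0.003 over all genes tested). The question here is which members differ between exposed and control oligodendrocytes, and limma-voom with Benjamini-Hochberg adjustment over all genes tested called 0 of the 36, where it called 3 of 16339 genes (0.0184%). At an unadjusted p under 0.05, 4 of 36 members (11.1%) were higher, against 3.23% of all genes tested, and 0 were lower, against 4.46%. For 36 of 36 members the 95% confidence interval of the fold change lay within 1.5-fold either way, as it did for 12094 of 16339 genes tested. In males this held for 34 members (9865 genes) and in females for 32 (10353 genes). No member had all 8 BPA libraries above or below all 8 controls, which 0.0306% and 0.0551% of all genes had.

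Among males, 0 members were called, against 0.00612% of genes. Herpud1 was the 1 member at an unadjusted p under 0.05 and higher, against 3.16% of genes, and 0 members were lower, against 4.80%. No member's male groups were free of overlap, a state that 1.62% of genes had with BPA higher and 2.83% with BPA lower. Among females, 0 members were called, as were 0% of genes. Of the 36, 3 were higher at an unadjusted p under 0.05 (Hspa5, Herpud1 and Xbp1), against 2.15% of genes, and 0 were lower, against 2.41%. The same 3 had all 4 BPA females above all 4 control females, against 1.27% of genes, and Sel1l had all 4 below, against 2.06%.

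**Figure D2:**
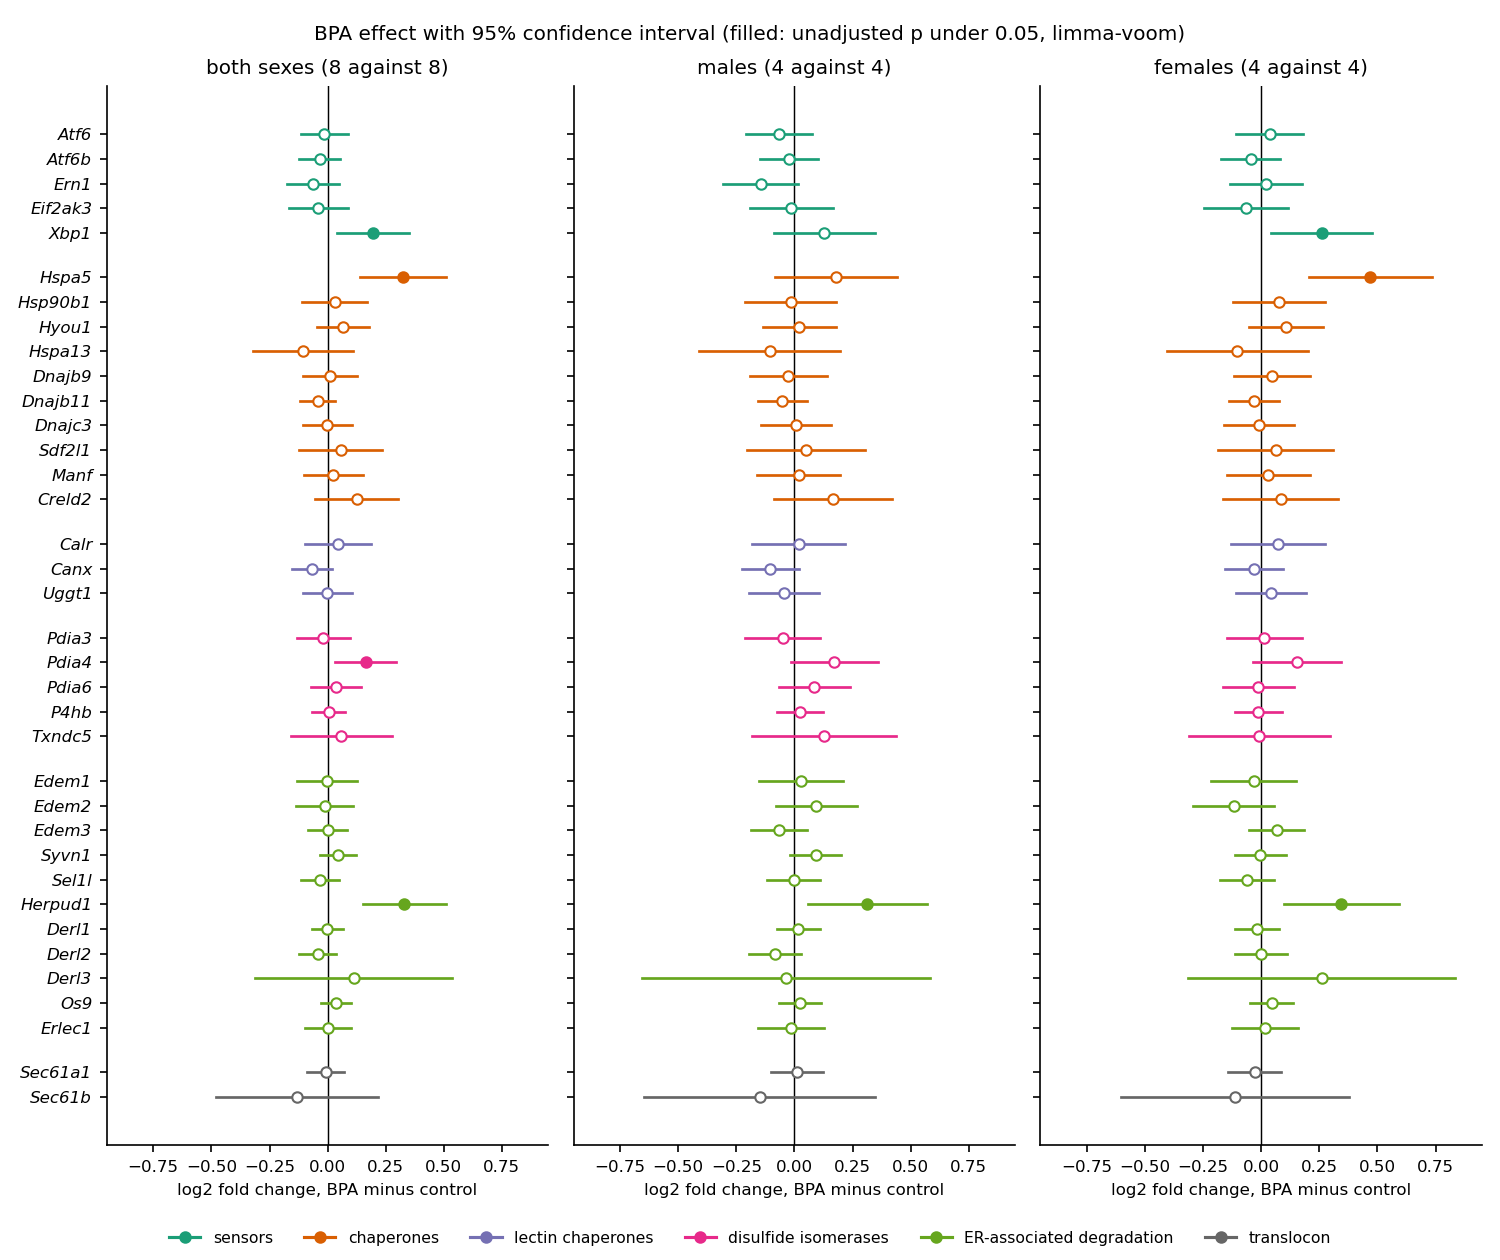
Log2 fold change of BPA minus control (x axis) for the 36 members, grouped by role, over both sexes, in males and in females. Points are estimates of limma-voom, lines their 95% confidence intervals, and filled points have an unadjusted p under 0.05. Xbp1, Hspa5, Pdia4 and Herpud1 are the filled points over both sexes, and most other points lie near 0.

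None of the 5 sensors and transducers was called. Xbp1, which carries the IRE1 signal onward, had the smallest p of them over both sexes (limma-voom p 0.0165, adjusted 0.517). Of the 5 genes, 1 was above 0 and 4 were below 0 over both sexes, with a median log2 fold change of -0.03. Atf6 (ENSMUSG00000026663), the sensor that is cut in the Golgi, was at 71.4, 81.1, 81.4 and 75.6 CPM in control males and 77.4, 64.7, 70.9 and 83.5 CPM in BPA males. In females Atf6 was at 74.1, 76.3, 73.7 and 74.4 CPM in controls and 76.1, 74.9, 77.1 and 77.9 CPM with BPA. The groups overlapped in both sexes, and the females of either group kept within a narrower range than the males. Its log2 fold change was -0.01 ± 0.05 (SE) over both sexes. The paralog Atf6b had a log2 fold change of -0.03 ± 0.04, at 111 to 127 CPM in controls and 103 to 122 CPM with BPA.

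Ern1 (ENSMUSG00000020715), the kinase and RNase IRE1 alpha, was at 13.4, 15.02, 14.2 and 15.2 CPM in control males and 12.6, 13.97, 11.6 and 13.7 CPM in BPA males. Control females had 13.5, 13.7, 14.7 and 14.8 CPM and BPA females 15.7, 13.6, 14.03 and 14.3 CPM. Male BPA 1 and 3 lay below all male controls, the other male libraries overlapped, and the female groups overlapped. The log2 fold change was -0.15 ± 0.08 in males and 0.02 ± 0.07 in females (limma-voom adjusted p 0.678 and 0.999), and -0.09 in males without male BPA 3. Eif2ak3 (ENSMUSG00000031668), which encodes PERK, was at 58.3, 65.1, 68.8 and 69.7 CPM in control males and 67.6, 55.8, 62.7 and 74.3 CPM in BPA males. In females it was at 67.4, 62.9, 72.8 and 63.5 CPM in controls and 59.0, 62.3, 68.2 and 65.1 CPM with BPA. All of its groups overlapped, and its log2 fold change over both sexes was -0.04 ± 0.06.

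Xbp1 (ENSMUSG00000020484) was at 48.2, 54.2, 53.3 and 56.6 CPM in control females and at 61.3, 65.8, 68.7 and 58.1 CPM in BPA females. Every BPA female lay above every control female, the nearest pair being 56.6 and 58.1 CPM. Control males had 58.2, 67.7, 48.95 and 55.5 CPM and BPA males 71.5, 68.6, 54.2 and 57.1 CPM, so that the male groups overlapped. The log2 fold change was 0.26 ± 0.10 in females and 0.13 ± 0.10 in males. In females the unadjusted limma-voom p was 0.0221, but 0.0606 without female control 1 and 0.0575 without female BPA 3. In males the log2 fold change of Xbp1 was 0.05 without male control 3, 0.07 without male BPA 1 and 0.08 without male BPA 2, against 0.21 without male control 2 and 0.20 without male BPA 3. Over both sexes it was 0.19 ± 0.07 (95% interval 0.04 to 0.35, limma-voom p 0.0165, adjusted 0.517), and an exact permutation test of libraries within each sex gave p = 0.029 (two-sided, 4900 arrangements). This test was run only on the members given per library, some of them picked by their p in these same libraries. Its p is not adjusted, here and below, and is no separate evidence. The sexes' effects on Xbp1 differed by 0.13 ± 0.14 (limma-voom adjusted p 0.999). Without male BPA 2 and female BPA 1 the log2 fold change over both sexes was 0.19.

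Among the 10 luminal chaperones, Hspa5 was the 1 with an unadjusted p under 0.05. The median log2 fold change of the 10 was 0.03 over both sexes, with 7 above 0. Hspa5 (ENSMUSG00000026864) was at 404, 453, 431 and 480.3 CPM in control females and at 601, 587, 663 and 595 CPM in BPA females. The female groups did not overlap, with a gap between 480.3 and 587 CPM. Control males had 495, 574, 366 and 464 CPM and BPA males 597, 615, 451 and 483 CPM. Male BPA 1 and 2 lay above all male controls, and male BPA 3 and 4 lay among them. The log2 fold change was 0.47 ± 0.12 in females (1.38-fold) and 0.18 ± 0.12 in males (1.13-fold), and the difference between the sexes was 0.29 ± 0.18 (p 0.12 by limma-voom, adjusted 0.999), so a sex difference was not shown. Without male control 3 that difference was 0.42 with an unadjusted p of 0.0126 (limma-voom adjusted p 1). Over both sexes the 8 controls had a mean of 458 ± 62.6 CPM and the 8 exposed mice one of 574 ± 70.6 CPM (SD), a log2 fold change of 0.32 ± 0.09 (95% interval 0.14 to 0.51, limma-voom p 0.00211, adjusted 0.285). The exact permutation test gave an unadjusted p of 0.00776 over both sexes, 0.0286 in females, the smallest that 4 against 4 can give, and 0.343 in males. The value in females follows from the groups not overlapping, which 1.27% of all genes showed with BPA higher. Without male BPA 2 and female BPA 1 the log2 fold change was 0.31 over both sexes. In males, where the value with all libraries was 0.18, it was 0.06 without male control 3, 0.11 without male BPA 2 and 0.28 without male control 2.

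Hsp90b1 (ENSMUSG00000020048), which encodes GRP94, the Hsp90 of the ER lumen, has 2 elements in its promoter. It was at 575, 644, 497 and 665 CPM in control males and 595, 564, 577 and 606 CPM in BPA males. In females it was at 559, 607, 532 and 627 CPM in controls and 618, 674, 636 and 532 CPM with BPA. The groups overlapped in both sexes, and female BPA 4 had the lowest value of the females, just under female control 3. Its log2 fold change over both sexes was 0.03 ± 0.07 (95% interval -0.11 to 0.17, limma-voom adjusted p 0.956). Other genes hold 2.96% of its transcript words of 50 bases.

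The nucleotide exchange factor of BiP, Hyou1, had a log2 fold change of 0.06 ± 0.05, with 103 to 133 CPM in controls and 104 to 124 CPM with BPA. Creld2, an ER protein induced by stress, had 0.12 ± 0.08, at 20.99 to 32.6 CPM in controls and 22.6 to 29.6 CPM with BPA. The J-domain partners of BiP were nearer to 0, with Dnajb9 at 0.009 ± 0.05, Dnajb11 at -0.04 ± 0.04 and Dnajc3 at -0.001 ± 0.05. Sdf2l1, a luminal partner of Dnajb11, had 0.06 ± 0.08, and Manf, a secreted ER protein induced by stress, had 0.025 ± 0.06, from 67.7 to 83.7 CPM in controls and 64.5 to 84.5 CPM with BPA. All control and BPA ranges of these 7 genes overlapped. Hspa13, a relative of the Hsp70 family, had -0.10 ± 0.10. It was at 93.7 CPM in male control 3 and 91.7 CPM in female control 2 and at 57.6 to 67.7 CPM in the other 14 libraries.

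**Figure D3:**
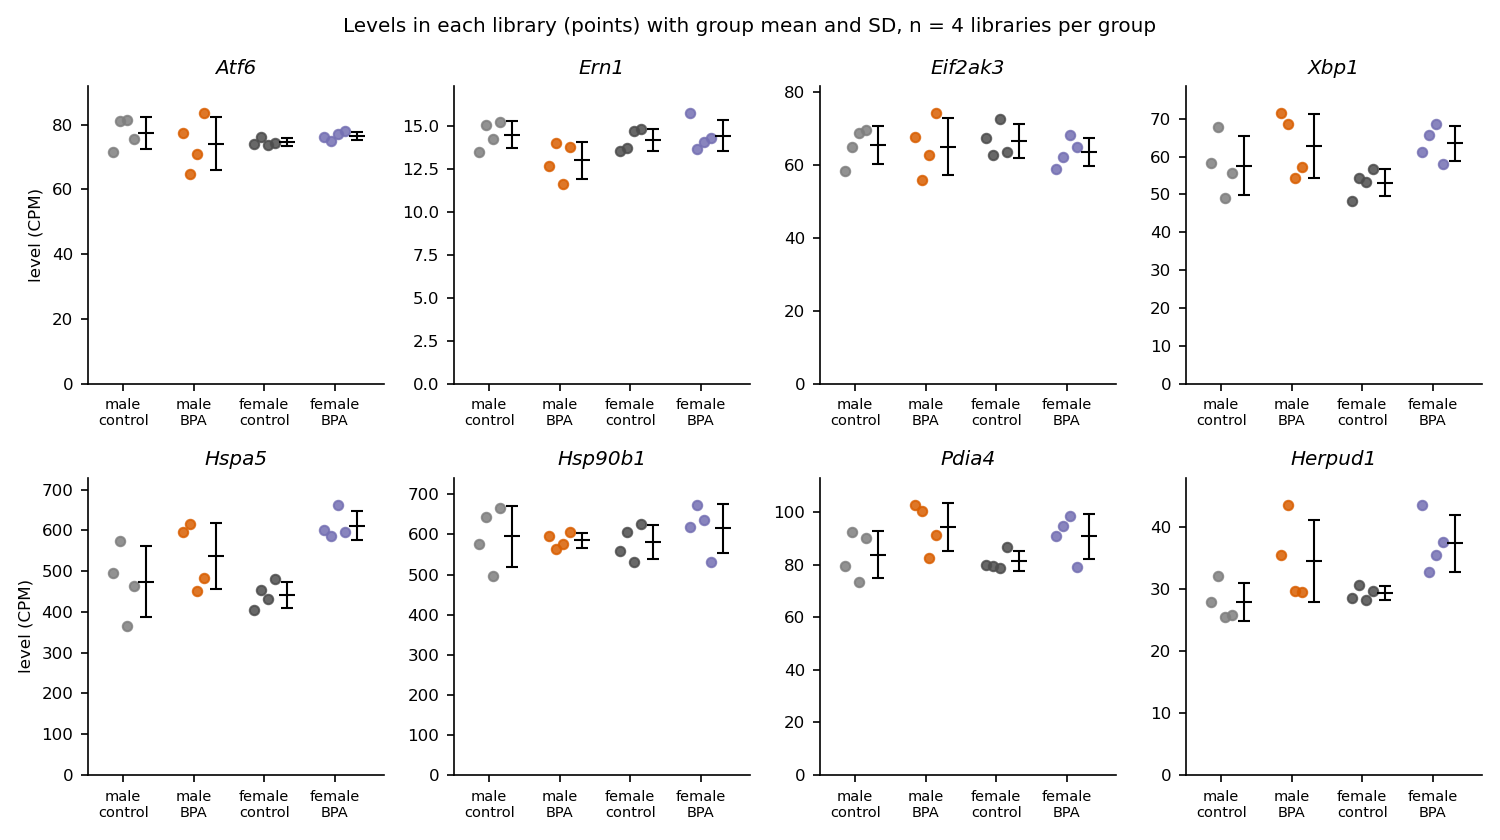
Levels in CPM (y axis, from 0) of the 8 members given for every library, by group. Points are the 4 libraries of a group, the bar beside them the mean and SD. In females Xbp1, Hspa5 and Herpud1 have no overlap between control and BPA, while Atf6, Ern1, Eif2ak3 and Hsp90b1 overlap in both sexes.

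The lectin chaperones, which hold glycoproteins in a folding cycle, had no member at an unadjusted p under 0.05. Canx (calnexin, the membrane-bound lectin) had a log2 fold change of -0.07 ± 0.04 over both sexes, from 508 to 587 CPM in controls and 485 to 549 CPM with BPA. In males it was at -0.10 ± 0.06 (limma-voom adjusted p 0.708). Calr (calreticulin, the soluble lectin and a calcium store) had 0.05 ± 0.07, from 592 to 766 CPM in controls and 605 to 794 CPM with BPA. Uggt1, which tags misfolded glycoproteins for another round, had -0.002 ± 0.05. The median of the 3 was -0.002, and from -0.02 to 0.03 with 1 library left out (without male control 1 and without male control 2).

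Of the 5 disulfide isomerases, Pdia4 was the 1 at an unadjusted p under 0.05, and the median log2 fold change of the group was 0.04. Pdia4 (ENSMUSG00000025823), which encodes ERp72, was at 79.7, 92.3, 73.3 and 90.1 CPM in control males and 103, 101, 82.8 and 91.4 CPM in BPA males. In females it was at 79.9, 79.7, 78.8 and 87.0 CPM in controls and 91.0, 94.9, 98.5 and 79.0 CPM with BPA. Male BPA 1 and 2 lay above all male controls, female BPA 1, 2 and 3 lay above all female controls, and female BPA 4 lay among the controls. The log2 fold change was 0.17 ± 0.09 in males, 0.15 ± 0.09 in females and 0.16 ± 0.06 over both sexes (95% interval 0.03 to 0.30, limma-voom p 0.0196, adjusted 0.538, unadjusted exact permutation p 0.0224). Without male BPA 2 and female BPA 1 it was 0.16 over both sexes, and without male control 3 it was 0.11 in males. The other isomerases were Pdia3 (ERp57, the partner of the lectins) at -0.02 ± 0.05, Pdia6 at 0.04 ± 0.05, P4hb (protein disulfide isomerase) at 0.005 ± 0.03 and Txndc5 at 0.06 ± 0.10. Txndc5 was at 59.5 CPM in male BPA 2, the library with the highest astrocyte markers, and at 32.9 to 43.2 CPM in the other 15 libraries.

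Of the 11 genes of ER-associated degradation, which returns misfolded proteins to the cytosol for destruction, Herpud1 alone had an unadjusted p under 0.05 over both sexes. The median log2 fold change of the 11 was 0.0001. Herpud1 (ENSMUSG00000031770), a membrane protein of the HRD1 ligase complex, was at 27.8, 32.2, 25.5 and 25.9 CPM in control males and at 35.4, 43.6, 29.8 and 29.5 CPM in BPA males. Control females had 28.6, 30.7, 28.2 and 29.7 CPM and BPA females 43.6, 32.8, 35.5 and 37.6 CPM. The female groups did not overlap, while male BPA 3 and 4 lay below male control 2, the highest control. The log2 fold change was 0.31 ± 0.12 in males, 0.34 ± 0.12 in females and 0.33 ± 0.08 over both (95% interval 0.15 to 0.51, limma-voom p 0.00132, adjusted 0.263), and it differed between the sexes by 0.03 ± 0.17. The exact permutation test gave an unadjusted p of 0.00245 over both sexes and 0.114 in males. Male BPA 2 and female BPA 1 had the highest values, and without both of them the log2 fold change was 0.24 over both sexes, 0.20 in males and 0.28 in females. Without male BPA 2 alone it was 0.19 in males, where the value with it was 0.31, a move of more than 1.5 times. Without male BPA 4 it was 0.40 in males.

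The other 10 degradation genes ran from -0.04 to 0.11 over both sexes. Syvn1, the HRD1 ubiquitin ligase, had a log2 fold change of 0.04 ± 0.04, from 113 to 125 CPM in controls and 113 to 136 CPM with BPA. Sel1l, its scaffold, had -0.03 ± 0.04. In females Sel1l was at 268, 271, 276 and 273 CPM in controls and 259.7, 265, 264 and 254 CPM with BPA, so that the groups did not overlap, with a log2 fold change of -0.06 ± 0.05 (limma-voom p 0.279). The mannose-trimming genes Edem1, Edem2 and Edem3 were at -0.003 ± 0.06, -0.01 ± 0.06 and 0.0001 ± 0.04. The derlins Derl1 and Derl2, of the retrotranslocation complex, were at -0.001 ± 0.03 and -0.04 ± 0.04. The glycan lectins Os9 and Erlec1 were at 0.04 ± 0.03 and 0.001 ± 0.05. Derl3 had 18 to 61 counts per library, and its log2 fold change of 0.11 ± 0.20 had the widest interval of the 36 members, -0.31 to 0.53. Other genes hold 5.56% of the transcript words of Derl1 and 5.50% of those of the chaperone Dnajb9.

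In the translocon, Sec61a1, the channel subunit, had a log2 fold change of -0.008 ± 0.04, from 169 to 193 CPM in controls and 167 to 195 CPM with BPA. Sec61b, a small subunit, had -0.13 ± 0.16 at only 94 to 338 counts per library. Other genes, among them Gm10320 and Gm5870, hold 17.4% of its transcript words of 50 bases, so its level is uncertain.

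Of sensors, chaperones and degradation genes, 1 member of each was higher at an unadjusted p under 0.05 over both sexes (1 of 5, 1 of 10 and 1 of 11). Over all genes tested 3.23% were higher and 4.46% lower at that p. In groups this small 1 gene does not set a role apart. The median log2 fold changes of sensors, chaperones and degradation genes were -0.03, 0.03 and 0.0001 over both sexes, -0.02, 0.01 and 0.02 in males and 0.02, 0.05 and -0.002 in females. These medians were unstable when 1 library was left out. That of the chaperones ran from 0.006 (without male control 3) to 0.07 (without female BPA 4) over both sexes, and in males it was -0.03 without male control 3, -0.009 without male control 1 and -0.004 without male BPA 1. The median of the sensors ran from -0.045 to -0.003 over both sexes with 1 library left out, was 0.03 without both male BPA 2 and female BPA 1, and in females was -0.02 without female BPA 1. The median of the degradation genes was -0.005 over both sexes and -0.003 in males without male control 1, and in females it was above 0 in 7 of the 8 cases with 1 female library left out, up to 0.03. No test compared these groups of genes with each other. No difference between the sexes in the effect of BPA passed the test: 0 of 36 were called (0% of genes) and 0 had an unadjusted p under 0.05 (4.72% of genes). Between control females and control males, 0 members were called, against 0.0551% of genes. Edem3 was the 1 member at an unadjusted p under 0.05, against 2.91% of genes, with 81.1 ± 4.53 CPM in control females and 88.1 ± 4.45 CPM in control males (SD, n = 4 each) and a log2 difference, female minus male, of -0.12 ± 0.06.

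Members with and without an ER stress element were set side by side. Of the 11 members with an ERSE or ERSE-II, 8 were above 0 over both sexes with a median log2 fold change of 0.04, and 2 had an unadjusted p under 0.05, Hspa5 and Herpud1. Of the 18 members whose promoter had no match, 8 were above 0 with a median of -0.002, and 2 had an unadjusted p under 0.05, Xbp1 and Pdia4. Over the 11720 tested genes with a promoter entry 6045 were above 0, the median was 0.003 and 3.27% were higher at that p. With and without an element, 7 of 11 and 8 of 18 members were above 0 in males, and 6 of 11 and 9 of 18 in females. No test compared these sets. An element in the window was thus found both in Hspa5 (0.32) and in Hsp90b1 (0.03), which differ in their log2 fold change.

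The levels of the members in controls spanned a wide range. They were compared as the authors' normalized counts divided by the median transcript length in kb, over 8 controls. Highest were Canx (26394 ± 1469, SD), Calr (26044 ± 2293), Pdia3 (25003 ± 1437), Hspa5 (24230.1 ± 3288), P4hb (19793 ± 681) and Hsp90b1 (17985 ± 1781). From Canx to Hsp90b1 each overlapped the next in its control range, while Hsp90b1 lay above the next gene, Atf6b, with no overlap. Over the whole order 26 of the 35 pairs of neighbours overlapped. Among the sensors Atf6b was at 10214 ± 503, Eif2ak3 at 2125 ± 151, Xbp1 at 1722 ± 189, Atf6 at 557 ± 27.3 and Ern1 at 250.5 ± 12.5. Herpud1, at 1258 ± 97.7, was 24th of the 36 in order, and Derl3, at 49.9 ± 13.7, was last. The order depends on the length used. With the longest GENCODE M21 transcript in place of the median, an alternative chosen after the data were seen, Calr ranked 1, Pdia3 ranked 2, Hsp90b1 ranked 3, P4hb ranked 4, Canx ranked 5 and Hspa5 ranked 6, and Ern1 and Derl3 were again ranked 35 and 36. Others moved far, such as Uggt1 from rank 17 to 34 and Edem1 from 12 to 28. Among the sensors Atf6b, with a median length of only 0.395 kb, was then at 1572, and Xbp1 (889) lay above Eif2ak3 (501).

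**Figure D4:**
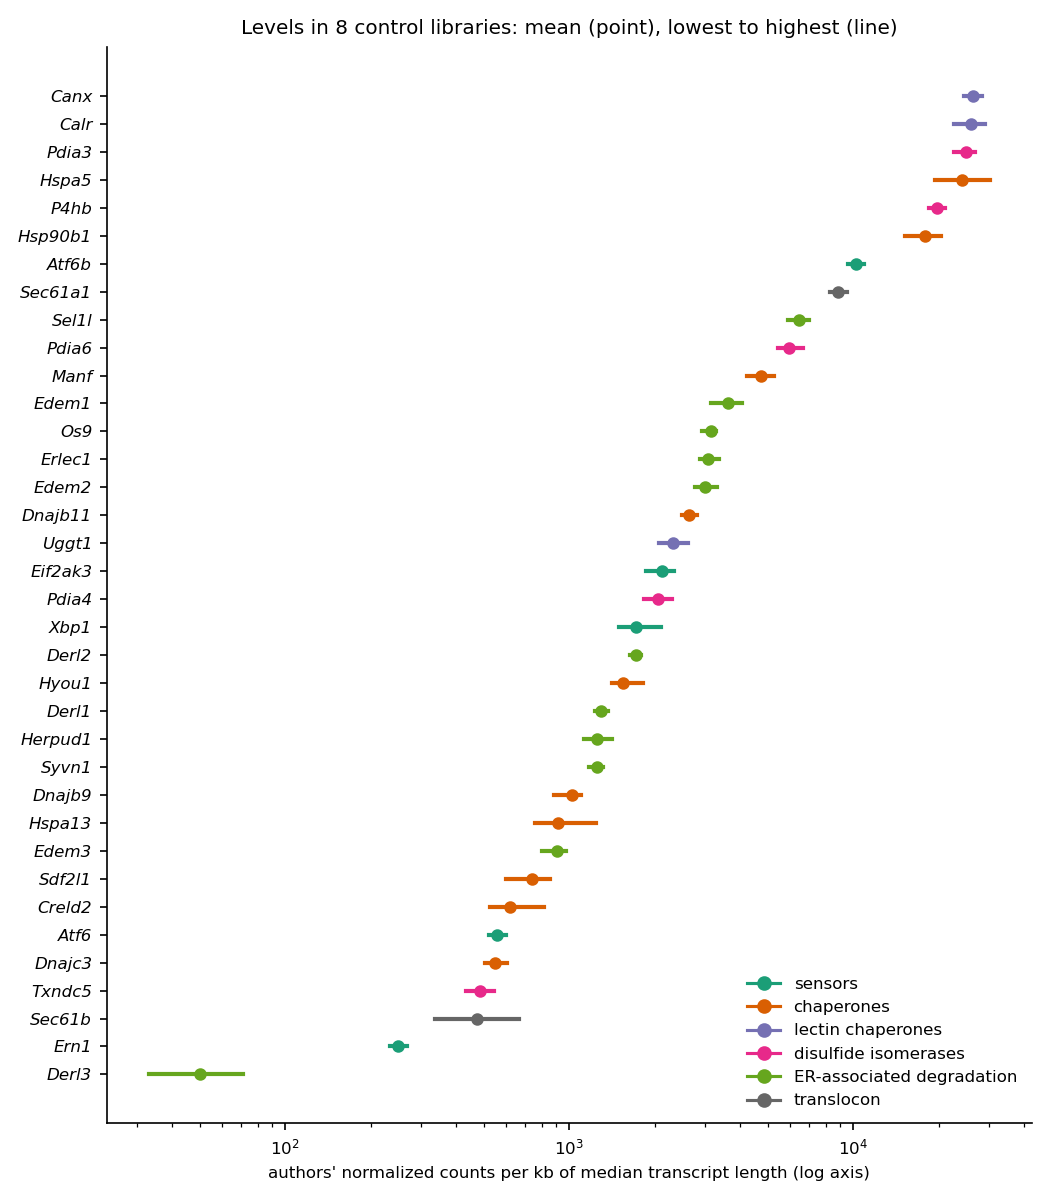
Level of each member in the 8 control libraries on a log axis, as the authors' normalized counts per kb of median transcript length, coloured by role. Points are means and lines run from the lowest to the highest control. Lectin chaperones, Pdia3, Hspa5, P4hb and Hsp90b1 are at the top, Ern1 and Derl3 at the bottom.

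The spread between control libraries also differed by gene. The coefficient of variation of the 8 controls was highest for Derl3 (27.5%), Sec61b (23.7%), Hspa13 (21.6%), Creld2 (15.3%) and Hspa5 (13.6%). It was lowest for Derl2 (3.12%), Os9 (3.32%), Derl1 (3.43%) and P4hb (3.44%). By role the median was 14.1% for the 2 translocon genes, 9.03% for chaperones, 7.02% for disulfide isomerases, 6.84% for lectin chaperones, 4.97% for sensors and 4.67% for degradation genes. Hspa5 thus varied among controls from 366 to 574 CPM, a range that its BPA libraries (451 to 663 CPM) overlap in males.

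To see which members vary together within groups, each gene's log2 CPM was taken with the group means removed, over 16 libraries. Xbp1 followed Hspa5 most closely, with a Pearson r of 0.94 and a Spearman rho of 0.92 (permutation of libraries within groups, Benjamini-Hochberg adjusted p 0.00665 and 0.0287 over 35 partners). Without the libraries farthest from the median of Hspa5 (male control 2 and male control 3) r was 0.91. Pdia4 (r 0.77, rho 0.74) and Manf (r 0.68, rho 0.69) passed by Pearson's r (permutation adjusted p 0.0454 for both) but not by Spearman's rho (0.0801 for both), and r was 0.67 and 0.51 without those libraries. Creld2 (r 0.74), Hyou1 (0.73), Dnajc3 (0.70) and Herpud1 (0.68, rho 0.74) did not pass (permutation adjusted p 0.101, 0.104, 0.101 and 0.101). Of the 35 partners 3 thus passed by Pearson's r and 1, Xbp1, by both measures, with a median r of 0.33 over all partners.

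The r of the sensors with Hspa5 was -0.24 for Atf6, 0.33 for Ern1 and -0.35 for Eif2ak3, and none of these passed. The values of Xbp1 and Hspa5 are therefore not separate measurements of the BPA difference, since they followed each other inside the groups as well. With no test, Xbp1 had an r of 0.84 with Pdia4 and 0.56 with Herpud1, and Pdia4 and Herpud1 had 0.39. The 4 members at an unadjusted p under 0.05 thus cannot be counted as 4 separate results. The pairwise values that follow share libraries and depth and are given with no test. A set of other genes had high r among themselves, such as Calr and Pdia3 (0.91), Hsp90b1 and Pdia3 (0.86) and Hsp90b1 and Calr (0.83), while Hspa5 and Hsp90b1 had an r of 0.48. Among degradation genes Syvn1 and Sel1l had an r of 0.84, and among sensors Atf6 and Eif2ak3 had 0.74. The median r of pairs was 0.48 among the 10 chaperones, 0.38 among the 5 disulfide isomerases, 0.12 among the 11 degradation genes and 0.03 among the 5 sensors, against 0.21 over all 630 pairs.

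**Figure D5:**
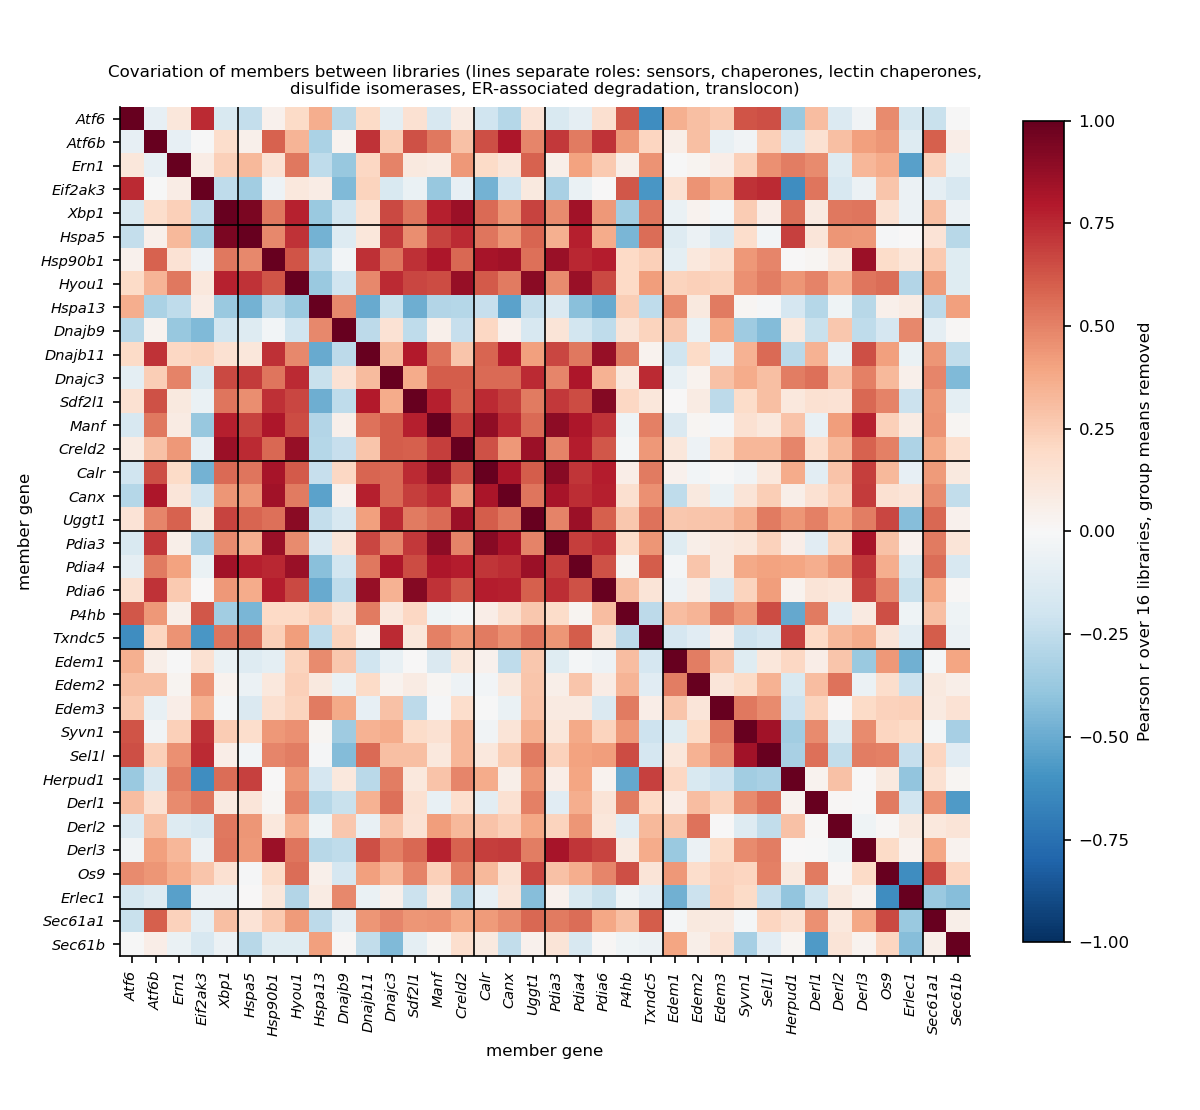
Pearson r between the members' log2 CPM over 16 libraries with group means removed, ordered by role, on a scale from -1 to 1. Each cell is a pair of member genes on the x and y axes and black lines separate the roles. Xbp1 and Hspa5 form a dark red cell, chaperones, lectins and isomerases are mostly red among themselves, and the degradation genes are paler.

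Markers of other cells and genes of tissue handling differed in direction by list. Over both sexes 15 of 15 microglia markers (median log2 fold change 0.23), 10 of 12 astrocyte markers (0.15) and 23 of 25 immediate early and dissociation response genes (0.25) were above 0. In females these medians were 0.06, 0.08 and 0.39, and in males 0.38, 0.21 and 0.09. Of all genes tested 51.2% were above 0 over both sexes. At an unadjusted limma-voom p under 0.05, 1 of the 15, 1 of the 12 and 1 of the 25 were higher over both sexes and 0 lower. Of all genes 3.23% were higher at that p. Of the tested mural and fibroblast markers 9 of 11 (median 0.32) and of the ependymal and choroid plexus markers 8 of 9 (0.41) were above 0. Other lists were mostly below 0, with 1 of 9 neuron markers (-0.10), 4 of 10 endothelial markers (-0.005), 3 of 7 blood cell markers (-0.03) and 1 of 6 plasma and B cell genes (-0.18) above 0. Of the 14 markers of myelinating oligodendrocytes 7 were above 0 (0.02), with 12 above 0 in males (0.07) and 4 in females (-0.03). Of the 11 markers of precursors 0 were above 0 in males (-0.29) and 10 in females (0.16). For control females minus control males, with no BPA, 15 of 15 microglia markers (median 0.61) and 11 of 12 astrocyte markers (0.11) were above 0. So were 23 of 25 immediate early and dissociation response genes (0.35), but 0 of 11 precursor markers (-0.15). One-sided shifts of these lists thus occurred between unexposed groups too. The summed immediate early genes were at 1817 to 2399.5 CPM in control females, 2037 to 3308 CPM in BPA females, 1394.5 to 2116 CPM in control males and 1493 to 2869.8 CPM in BPA males, with Npas4 below 1 CPM in each group.

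Within groups, Herpud1 followed several of these lists. It had an r of 0.77 with the mean of the immediate early list (rho 0.69, permutation adjusted p 0.0336 and 0.0324 over 11 lists) and 0.59 without male BPA 2 and female BPA 1. Its r was 0.70 with mural and fibroblast markers, 0.70 with plasma and B cell genes and 0.75 with blood cell markers (rho 0.67, 0.73 and 0.78, permutation adjusted p 0.0336, 0.0352 and 0.0372), and 0.56, 0.51 and 0.56 without those libraries. With astrocyte markers r was 0.74 and rho 0.57 (permutation adjusted p 0.0367 and 0.111), and 0.67 without those libraries. The other lists did not pass by either measure. Among them were myelinating oligodendrocyte markers (r -0.65, permutation adjusted p 0.0974, and -0.29 without those libraries) and microglia markers (r 0.56, permutation adjusted p 0.0554). Of the blood cell markers 5 of 9, and of the plasma and B cell genes 4 of 8, were below 1 CPM. Hspa5 had its highest r with the astrocyte list (0.69, rho 0.76, permutation adjusted p 0.0508), with 0.17 for the immediate early list and 0.08 for the microglia list. The part of these cells and of handling in the differences of Hspa5 and Herpud1 was not tested.

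Other genes of the pathway were taken from lists chosen by function, and their counts over both sexes stand against 51.2% of all genes tested above 0, 3.23% higher and 4.46% lower at an unadjusted p under 0.05. Of 56 tested genes of ER protein entry and folding outside the 36, 29 were above 0 (median 0.003), with Mcfd2, a cargo receptor subunit, at 0.11 ± 0.04 and Fkbp9, a prolyl isomerase, at -0.15 ± 0.06 as the 2 with an unadjusted p under 0.05. Of 26 other degradation genes 13 were above 0, 0 were higher and 3 lower at that p. The 3 were Ube2j2, a ubiquitin-conjugating enzyme of the ER (-0.16 ± 0.05), Herpud2, the paralog of Herpud1 (-0.10 ± 0.04), and Rad23b, which carries ubiquitinated proteins to the proteasome (-0.08 ± 0.04). Of 28 other transducers of stress responses 17 were above 0, 3 higher and 1 lower at that p, among them Ddit3, which encodes CHOP (0.43 ± 0.08), Sesn2 (0.32 ± 0.08), Ppp1r15b (0.12 ± 0.04) and Yod1 (-0.18 ± 0.06). Atf4, the factor translated when eIF2 alpha is phosphorylated, was at 0.02 ± 0.05. Of 24 tested genes of the integrated stress response 13 were above 0 (median 0.005), and Ddit3 and Sesn2, which that list shares with the transducers, were the 2 at an unadjusted p under 0.05. None of these genes was called by limma-voom over both sexes.

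The cytosolic counterpart of the chaperones, the heat shock genes, were above 0 in all but 1 case. Of 24 genes 23 were above 0 over both sexes with a median log2 fold change of 0.11, and 6 were higher and 0 lower at an unadjusted p under 0.05, where 51.2% of all genes tested were above 0, 3.23% higher and 4.46% lower. They included Dnajb4 (0.23 ± 0.04) and Dnajb1 (0.41 ± 0.09), co-chaperones of cytosolic Hsp70, Hsph1, its exchange factor (0.29 ± 0.10), and Chordc1, a co-chaperone of Hsp90 (0.13 ± 0.05). Their limma-voom adjusted p over all genes ran from 0.148 for Dnajb4 to 0.54 for Chordc1. The median of the 24 was 0.13 in males and 0.09 in females. No test compared this list with the ER members, and lists of this kind had appeared in earlier results of these data.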

How the data were processed

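RNA of O4-sorted cells was measured in 16 libraries, 4 per group, from 100 ng of RNA with a stranded poly(A) kit, per the labels' protocols. The submitters' processing notes name the tools STAR 2.5.3a, bcl2fastq 2.20.0.422, DESeq2 1.16.1 and HTSeq 0.6.1p1 and the build mm39. The authors deposited counts, normalized values and the latter per kb of median transcript length. Dividing each count by its library's median-of-ratios size factor gave the deposited normalized value. The table's layout kept its counts from an automated check of their unit, so limma-voom replaced the edgeR test of the design and count models were not run.

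Genes that passed a filter of 10 counts (scaled to depth, in as many libraries as a group has) and 15 in total were tested, 16339 genes with 99.947% of counts. Of 32207 genes 31717 have a symbol in GENCODE M21. Limma 3.58.1 (R 4.3.3) fitted 1 coefficient per group with trimmed mean of M values scaling and robust moderation, and adjusted p (Benjamini-Hochberg) under 0.05 counted as called. Log2 CPM used a prior count of 2. All tests are two-sided. The fits were tested on simulated data. There 50 genes were changed at each of 1.3-, 1.5-, 2- and 4-fold, with no litters. Of the 50 genes changed 1.3-fold, 23 were called over both sexes, 14 in males and 16 in females, so changes of this size can be missed. Of unchanged genes 8, 6 and 5 were called. More genes were called there than in the real data, which eases the adjusted threshold, so these counts may overstate what the real data allow. Correlations used 100000 permutations of libraries within groups (Python 3.11.15). The members, lists and tests were chosen with earlier results of these data known. Members with an unadjusted p under 0.05 in a BPA contrast, and always Hspa5, Hsp90b1, Atf6, Ern1, Eif2ak3 and Xbp1, are given per library, the others by range and fold change. Up to 4 genes per list are named by smallest p. Atf4 and the values of Sel1l per library were added after the data were seen. Promoters are from RefSeq (GRCm38.p6). The 50-base transcript words shared between genes are from GENCODE M21.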

Additional observations from a re-analysis of the deposited data

Results flagged for a closer look

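In 7 of 144 groups of 4 libraries (36 members in 4 groups), the highest or lowest library lay apart from the other 3 by more than Dixon's 95% critical gap, where chance alone flags about 1 in 20 groups. Txndc5 was at 59.5 CPM in male BPA 2, above 32.9 to 37.4 CPM in the other BPA males, and that library also has the highest astrocyte markers. Hspa13 was at 93.7 CPM in male control 3, above 60.0 to 65.6 CPM in the other control males. Hyou1 was at 111 CPM in female BPA 4, below 122.5 to 123.6 CPM in the other BPA females. Pdia4 was at 87.0 CPM in female control 4, above 78.8 to 79.9 CPM, and P4hb at 472 CPM in female control 1, above 443 to 444 CPM in the other control females. Dnajb9 was at 41.1 CPM in male control 4, below 44.3 to 44.9 CPM, and Edem3 at 81.5 CPM in male control 1, below 89.9 to 90.7 CPM in the other control males. No member's BPA effect differed between the sexes by the interaction test.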

How the results depend on the processing

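The number of members called was 0 in each contrast under each alternative run: limma-trend (added after the data were seen), median-of-ratios size factors, no filter, a stricter filter, only libraries of that sex, the replicate block, each library left out in turn, and without male BPA 2 and female BPA 1 together. DESeq2 and edgeR were not run. Xbp1, Hspa5, Pdia4 and Herpud1 kept an unadjusted p under 0.05 over both sexes in all 22 alternatives, with log2 fold changes of 0.27 to 0.38 (Hspa5), 0.24 to 0.38 (Herpud1), 0.16 to 0.24 (Xbp1) and 0.14 to 0.20 (Pdia4), and their smallest limma-voom adjusted p was 0.187. The count of members at that p over both sexes ran from 4 to 6 with 1 library left out (6 without male control 2) and was 5 without male BPA 2 and female BPA 1. In females it ran from 2 to 4, and was 5 with only female libraries in the fit. In males it was 1, and 2 with limma-trend (Ern1 lower, Herpud1 higher), 2 with no filter, 3 without male BPA 2 and female BPA 1, and 1 to 4 with 1 library left out: 4 without male control 2, 3 without male control 4 or male BPA 3, and 2 without male control 1. The counts over all genes tested at that p moved as well. Over both sexes they were 1256 of 16339 in the main fit and 1290 of 16558 without male control 2. In females they were 744 of 16339, and 779 of 15892 with only female libraries. In males they were 1300 of 16339 in the main fit. There they were 2034 of 32207 with no filter and 1843 of 16420 without male BPA 2 and female BPA 1. A change in the member count is thus not by itself a result about the members. Without male control 3 or male BPA 2, Herpud1 was not the 1 male gene at that p; it was Canx or Ern1, each lower.

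Values near 0 turned sign. Without male BPA 2 and female BPA 1, the log2 fold change was 0.0297 for Atf6 and 0.0265 for Eif2ak3 over both sexes, 0.0075, 0.0692 and 0.0117 in males for Atf6, Eif2ak3 and Hsp90b1, -0.0107 in females for Ern1, and the female minus male difference of Pdia4 was 0.0178. With 1 library left out, the ranges of single members that crossed 0 were -0.0352 to 0.0171 for Atf6 and -0.0079 to 0.0709 for Hsp90b1 over both sexes, -0.0687 to 0.06 for Eif2ak3 and -0.1026 to 0.0478 for Hsp90b1 in males, and -0.0234 to 0.0575 for Ern1 in females. For the female minus male difference they were -0.1261 to 0.0127 for Eif2ak3, -0.0501 to 0.1544 for Herpud1 and -0.0755 to 0.0607 for Pdia4. Medians by role also crossed 0: chaperones in males (-0.0333 to 0.0648), sensors (-0.0234 to 0.0552), isomerases (-0.0267 to 0.0604) and translocon (-0.1514 to 0.0275) in females, translocon in males (-0.1214 to 0.0103), lectins over both sexes (-0.0221 to 0.0331) and in males (-0.0969 to 0.0133), and degradation genes over both sexes (-0.0049 to 0.0209), in males (-0.0029 to 0.0446) and in females (-0.0104 to 0.0269). The cause was not tested.

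The labels number libraries 1 to 4 in each group. Same-numbered libraries of different groups had correlations of deviations from -0.36 to 0.43 (median 0.06, 24 pairs). Over 72 other pairs they ran from -0.58 to 0.54 (median -0.005). Whether a number stands for a shared litter or batch is not labelled and was not tested. With the replicate block, 4 members over both sexes, 1 in males and 3 in females had an unadjusted p under 0.05, the counts found without it. The r of Hspa5 with Xbp1, Pdia4, Manf and Herpud1 was 0.94, 0.77, 0.67 and 0.67 on the values the authors normalized.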

Other observations

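Genes outside the 36 whose promoters hold an ERSE or ERSE-II were set beside the members. Of 18 such tested genes, 10 were above 0 over both sexes, with a median log2 fold change of 0.02. Xlr3b (1.77 ± 0.27, limma-voom adjusted p 0.0414) and Xlr3a (1.52 ± 0.31, limma-voom adjusted p 0.178), of an X-linked gene family of similar copies, had an unadjusted p under 0.05, both at a mean of 0.656 CPM, so their counts are uncertain. Nucb1, a calcium-binding protein of the Golgi, was at 0.03 ± 0.03, and Alg12, a mannosyltransferase of N-glycan synthesis in the ER, at 0.06 ± 0.07. These genes were named after their values were seen.

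Among plasma and B cell genes, which mark cells with a large ER, Jchain, Mzb1, Cd79a and Pou2af1 were below 1 CPM in every group, and the 8 genes summed to 13.1 to 30.2 CPM in each library.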
